A study of Mus musculus with 20 samples.

Results

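En1, En2, Hmx2 and Hmx3 are 4 homeobox transcription factor genes of developing serotonin (5-HT) neurons, taken by symbol from the deposited expression tables. All 4 were found among 22542 genes of the stage table that had a usable estimate, and all 4 passed the filter on low values, which left 11741 genes. The libraries came from C57BL/6 mice, as EYFP-positive 5-HT neurons sorted by flow cytometry, where EYFP is a yellow fluorescent protein. Which transgene marked the sorted neurons is not stated for them. Wild-type neurons were collected at embryonic stages E11.5 and E15.5 and on postnatal days 1 to 3 (PN), with 3 libraries each, amplified with the Clontech SMARTer kit. At E15.5, Pet-1-/- neurons were compared with wild type in 3 libraries each with the Clontech kit, and again in 3 and 3 with the NuGEN Ovation kit. Pet-1 is an ETS-family transcription factor encoded by Fev. The wild-type E15.5 columns of the stage table name no kit, and were taken as the Clontech ones from the protocol. Pet-1 binding was mapped by chromatin immunoprecipitation of a Myc-tagged Pet-1 (mycPet-1) from hindbrain, in 1 immunoprecipitate and 1 input library. The labels of both give wild type in one field, and the shared protocol gives Pet-1-/- embryos carrying ePet-mycPet-1 and ePet-EYFP. Ages begin at E12.5 in both and end at E14.5 in the labels and at E15.5 in the protocol, and the hindbrain was cut out as far as rhombomere 4.

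Engrailed proteins, encoded by En1 and En2, are homeodomain repressors best known from the midbrain and the first hindbrain segment. There they are induced around the isthmus, the signalling centre at the midbrain-hindbrain border, and they act in dopamine neurons and in rostral serotonin neurons. Hmx2 and Hmx3, also called Nkx5-2 and Nkx5-1, belong to the NK-like homeobox genes, stand side by side on one chromosome, and are known from the inner ear and the hypothalamus. Levels below are FPKM, read fragments divided by transcript length and by the library's mapped fragments, so that genes may be compared.

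The genes lie at 3 loci in the mouse build GRCm38 (mm10), by RefSeq's gene spans. En1 spans chr1:120602487-120607991 and En2 chr5:28165696-28172190. Hmx3 spans chr7:131541532-131546027 and Hmx2 chr7:131548757-131558014, with 2729 bases between the spans. The 250 bases before a RefSeq transcript start of En1, Hmx3 and Hmx2, the last 2 within the gene spans, are shown because mycPet-1 peaks lie on or beside them. Capitals mark each GGAA, the core that ETS factors bind, read on either strand (TTCC on the strand shown), 5′ to 3′ on the plus strand.
En1, chr1:120602237-120602486: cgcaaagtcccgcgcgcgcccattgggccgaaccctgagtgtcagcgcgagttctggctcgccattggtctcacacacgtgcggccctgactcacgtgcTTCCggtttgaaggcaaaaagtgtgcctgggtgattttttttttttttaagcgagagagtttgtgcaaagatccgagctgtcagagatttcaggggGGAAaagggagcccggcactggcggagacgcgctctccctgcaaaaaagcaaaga
Hmx3, chr7:131542713-131542962: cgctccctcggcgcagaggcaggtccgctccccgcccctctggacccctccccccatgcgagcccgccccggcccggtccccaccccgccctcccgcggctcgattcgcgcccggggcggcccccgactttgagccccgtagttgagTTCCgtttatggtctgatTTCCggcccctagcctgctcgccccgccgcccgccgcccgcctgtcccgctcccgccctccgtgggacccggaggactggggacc
Hmx2, chr7:131554043-131554292: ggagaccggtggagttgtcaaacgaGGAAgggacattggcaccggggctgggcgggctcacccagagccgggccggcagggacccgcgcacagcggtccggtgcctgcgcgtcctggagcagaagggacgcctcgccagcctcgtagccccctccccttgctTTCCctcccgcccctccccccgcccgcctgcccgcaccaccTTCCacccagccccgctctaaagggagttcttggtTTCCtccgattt

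The core was found 2, 2 and 4 times in these windows. GGAA was present in 93.4% of the 32851 RefSeq windows of this length, with a median of 3 matches, so its presence is no mark of these genes. The longer form CCGGAA was found 1 time each in the En1 and Hmx3 windows, as ttccgg on the strand shown, and 0 times in the Hmx2 window, against 12.0% of all windows with it. It contains GGAA, so these matches are among those in capitals. Of the Hmx3 window, 140 of 250 bases lay under 2 mycPet-1 peaks. The En1 window stood 797 bases and the Hmx2 window 19 bases from the nearest peak. RefSeq holds a further Hmx2 start, chr7:131548507-131548756 upstream, which stood 3465 bases from a peak.

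The stage series asks how expression changes as the neurons mature. In FPKM En1 and Hmx2 were the abundant members and En2 and Hmx3 the scarce ones. Over the 9 libraries En1 averaged 51.5 FPKM and Hmx2 26.3 FPKM, above 83.5% and 75.7% of the genes tested. Hmx3 averaged 2.61 FPKM and En2 2.01 FPKM, above 24.8% and 19.2% of them. Libraries are lettered a to c in column order, and the letters pair nothing between stages. PN library b stood apart in some markers of other cells. Its 5 microglia markers summed to 844.8 FPKM, against 94.5 and 102.2 in the other PN libraries. Its Aldh1a1, a dopamine neuron marker, was at 56.0 FPKM, most of its dopamine marker sum of 61.7. The dopamine markers Nr4a2 and Lmo3 were instead lowest of PN in library b, at 0.636 and 3.69 FPKM, and Slc6a3 and Pitx3 were below 1 FPKM. Its GABA marker sum was the lowest of PN, at 5.61 FPKM. Its serotonin marker sum was the highest of PN, at 582.1 FPKM. Library b was also the PN library with the most Hmx2 and Hmx3. Without it the change from E11.5 to PN was -3.28 for Hmx2 and -1.76 for Hmx3 in log2(FPKM + 1) (limma, adjusted p = 4.36e-04 and 0.0152), and that of Hmx3 from E15.5 to PN was -0.31 (limma, adjusted p = 0.684).

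Hmx2 fell steeply between E11.5 and E15.5 and stayed low. It was at 82.7, 51.7 and 52.7 FPKM in the E11.5 libraries, at 13.9, 8.11 and 6.13 at E15.5, and at 7.76, 9.76 and 3.61 in PN. Every E11.5 library stood above every later one, and the E15.5 and PN libraries overlapped. Means were 62.4 ± 17.6, 9.38 ± 4.04 and 7.04 ± 3.14 FPKM (SD, n = 3 each), a fall of 6.65-fold to E15.5. On the log2(FPKM + 1) scale the change to E15.5 was -2.64 (SE 0.40, 95% interval -3.51 to -1.78, limma, adjusted p = 5.92e-04). To PN it was -3.03 (SE 0.40, limma, adjusted p = 1.58e-04). From E15.5 to PN the change was -0.39, with an interval from -1.25 to 0.48 (limma, adjusted p = 0.528). In these sorted pools fewer cells that express a gene and less RNA per cell cannot be told apart.

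Hmx3, its neighbour, was also highest at E11.5, at a lower level. It was at 3.88, 7.71 and 3.70 FPKM at E11.5, at 1.64, 1.25 and 0.653 at E15.5, and at 1.24, 3.08 and 0.330 in PN. The E11.5 libraries again stood above all others, but PN library b came close to them. Means were 5.10 ± 2.26, 1.18 ± 0.497 and 1.55 ± 1.398 FPKM (SD, n = 3 each). The fall to E15.5 passed the test (log2 change -1.45, SE 0.44, limma, adjusted p = 0.0283), as did that to PN (-1.35, SE 0.44, limma, adjusted p = 0.0395). Both calls were lost at a pseudocount of 0.1 (limma, adjusted p = 0.0591 and 0.0651). Without E11.5 library b or E15.5 library b both were lost (limma, adjusted p = 0.0951 and 0.127, and 0.0653 and 0.0577). The first was also lost without E15.5 library c (limma, adjusted p = 0.104), and the second without PN library a or c (limma, adjusted p = 0.0957 and 0.166). From E15.5 to PN the log2 change was 0.10, with an interval from -0.86 to 1.06 (limma, adjusted p = 0.896).

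En1 had its lowest mean at E15.5. It was at 112.6, 43.2 and 51.9 FPKM at E11.5, at 42.2, 24.6 and 21.6 at E15.5, and at 81.8, 59.5 and 26.3 in PN. The E11.5 and E15.5 libraries did not overlap, by less than 1 FPKM between the lowest of the former and the highest of the latter. PN library c lay among the E15.5 libraries and below those of E11.5, and the other two PN libraries lay among those of E11.5. Means were 69.2 ± 37.8, 29.5 ± 11.1 and 55.9 ± 27.9 FPKM (SD, n = 3 each).

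None of the En1 changes passed the limma test. The log2 change was -1.13 from E11.5 to E15.5 (SE 0.46, 95% interval -2.12 to -0.14, limma, adjusted p = 0.0808) and 0.82 from E15.5 to PN (SE 0.46, interval -0.17 to 1.81, limma, adjusted p = 0.229). The first was called once libraries were scaled to the same upper quartile (-1.32, limma, adjusted p = 0.0430). The authors' deposited table of stages called both steps, with log2 fold changes of -1.18 and 0.91 and q = 3.88e-04 and 0.00188, where 38.1% and 32.8% of genes were called. From E11.5 to PN the log2 change was -0.32 with an interval from -1.31 to 0.67 (limma, adjusted p = 0.647), and its sign turned without E11.5 library a (0.09) or PN library c (0.14).

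En2 was low at all stages. It was at 6.40, 0.946 and 2.96 FPKM at E11.5, at 1.80, 1.07 and 1.51 at E15.5, and at 1.09, 1.38 and 0.932 in PN. E11.5 libraries a and c stood above all later ones, and library b lay below every E15.5 library. Means were 3.44 ± 2.76, 1.46 ± 0.368 and 1.13 ± 0.227 FPKM (SD, n = 3 each). No step passed the test, with log2 changes of -0.66 to E15.5 (95% interval -1.61 to 0.29, limma, adjusted p = 0.280) and -0.20 from E15.5 to PN (interval -1.15 to 0.75, limma, adjusted p = 0.789). The first of these was -1.15 without E11.5 library b (limma, adjusted p = 0.0527), -0.19 without E11.5 library a (limma, adjusted p = 0.755), and -1.21 in the authors' deposited table (q = 0.103). From E11.5 to PN it was -0.86 (interval -1.81 to 0.09, limma, adjusted p = 0.170), and this was called without E11.5 library b (-1.35, limma, adjusted p = 0.0269).

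**Figure D1:**
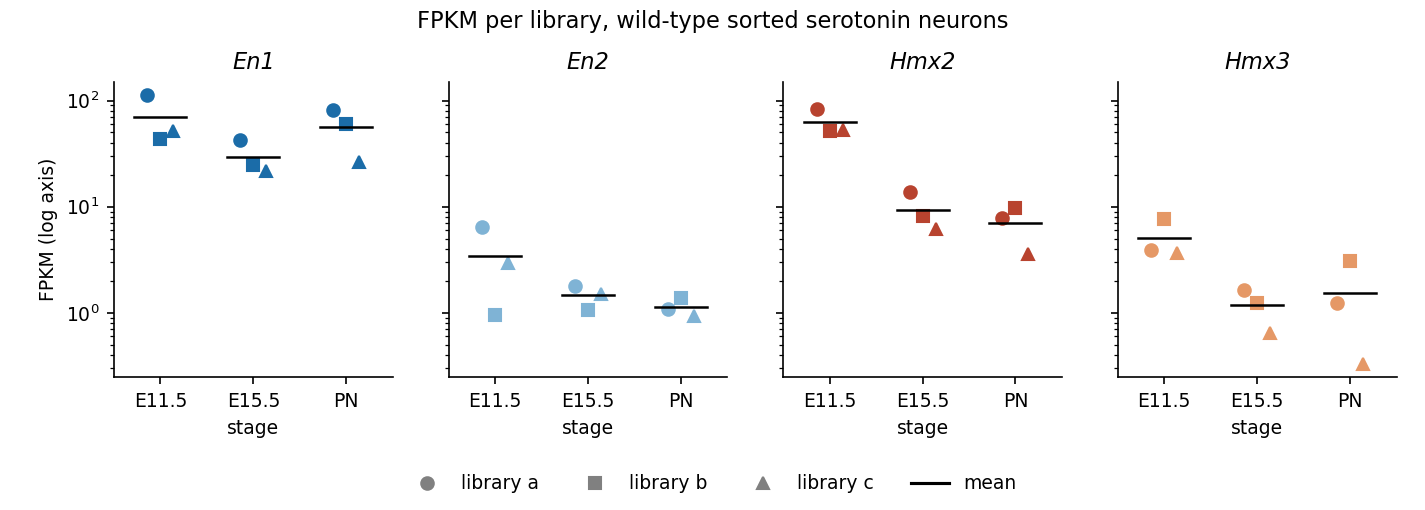
FPKM of each member on a log axis in the 3 libraries of each wild-type stage, with the mean as a bar; marker shapes are the library letters. Hmx2 and Hmx3 drop after E11.5, En1 is lowest at E15.5, and En2 spreads widely at E11.5 (0.946 to 6.40 FPKM).

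Of the 4 members, 2 were called lower from E11.5 to E15.5, where 28.9% of all genes tested were called in either direction, and 2 from E11.5 to PN, where 27.4% were. From E15.5 to PN 0 were called in either direction, against 20.2% of all genes, and 0 reached an unadjusted p under 0.05 in limma, while the authors' deposited table called 1, En1. Libraries of E11.5 and E15.5 did not overlap for 3 members (En1, Hmx2 and Hmx3), against 42.3% of all genes. They did not overlap for 2 members between E11.5 and PN (40.3% of all genes) and for 0 between E15.5 and PN (42.2%). The later step was also tested against the earlier one. For Hmx2 the steps differed by 2.26 (SE 0.69, limma, adjusted p = 0.0337, where 22.6% of all genes were called), and the call was lost at a pseudocount of 0.1 (limma, adjusted p = 0.0508) and without E15.5 library b or c or PN library a or b (limma, adjusted p = 0.106, 0.151, 0.0704 and 0.0696). For En1 they differed by 1.95 (SE 0.79, limma, adjusted p = 0.0953), called without PN library c (limma, adjusted p = 0.0331). Differences for Hmx3 and En2 were 1.55 and 0.46 (limma, adjusted p = 0.166 and 0.701). Over all genes tested, the median log2 change from E11.5 to E15.5 was 0.11, and member changes may be read against it.

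**Figure D2:**
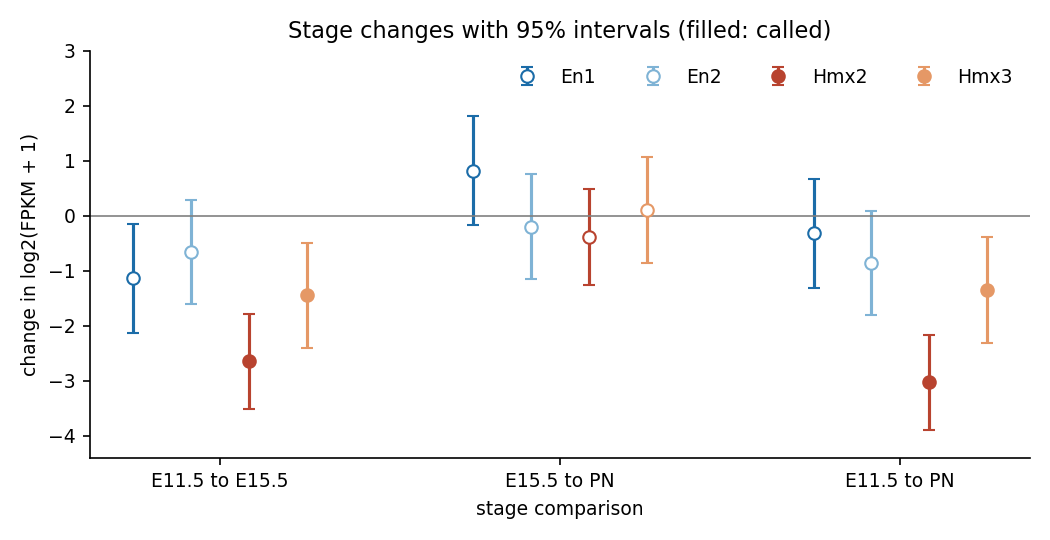
Change in log2(FPKM + 1) of each member for the 3 stage comparisons, with 95% intervals from limma; filled points passed the test. The filled points are Hmx2 and Hmx3 for both comparisons that start at E11.5.

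By mean level En1 stood above Hmx2 at every stage, and both above Hmx3 and En2. At E11.5 En1 and Hmx2 overlapped, as did Hmx3 and En2. At E15.5 and in PN every library had more En1 than any library of the same stage had Hmx2, while En2 and Hmx3 still overlapped. Within libraries, the ratio of Hmx2 to En1 was 0.734, 1.197 and 1.02 at E11.5, 0.329, 0.329 and 0.284 at E15.5, and 0.0949, 0.164 and 0.137 in PN. The 3 stages did not overlap in this ratio, and how often the ratios of other gene pairs do so was not tested.

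The ratio of En1 to En2 ran from 17.5 to 45.6 at E11.5, from 14.3 to 23.5 at E15.5 and from 28.2 to 74.9 in PN. It was higher in each PN library than in any E15.5 library. The ratio of Hmx2 to Hmx3 was 6.70 to 21.3, 6.50 to 9.39 and 3.17 to 10.9, overlapping at all stages. In 9 exact two-sided permutation tests of these log ratios, 3 against 3 libraries cannot go below p = 0.10. That value was reached for the 3 comparisons of Hmx2 to En1 and for En1 to En2 between E15.5 and PN (Benjamini-Hochberg adjusted p = 0.225, exact permutation), so none passed.

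**Figure D3:**
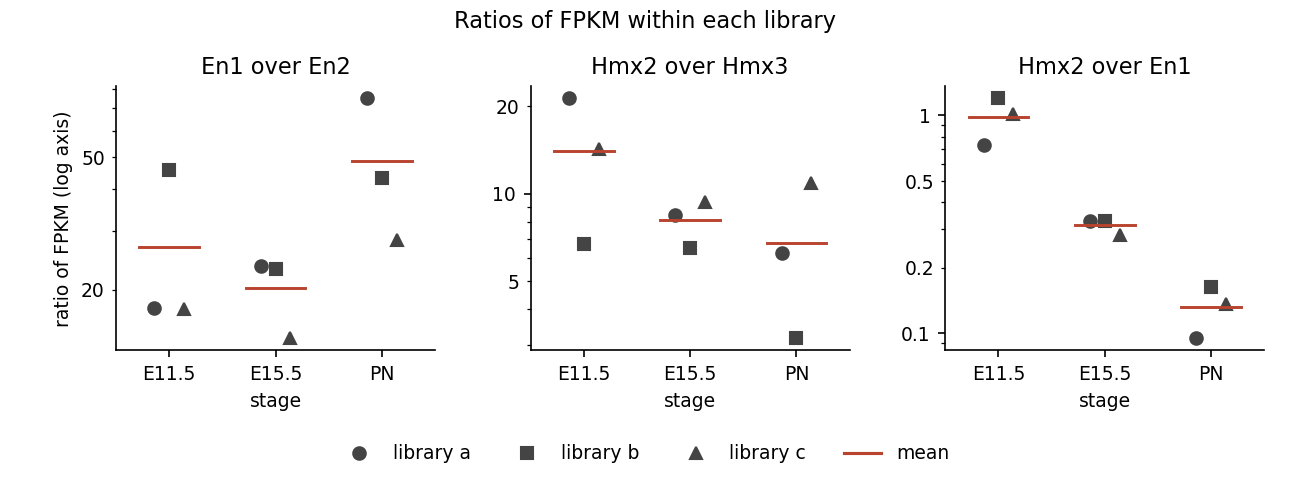
Ratio of FPKM within each library for 3 pairs of members, on log axes, with the mean per stage as a bar. The mean of Hmx2 over En1 is lower at each later stage, from 0.982 to 0.314 and 0.132, and no ratio comparison passed the permutation test.

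Within stages the abundant members varied together with Fev. Fev was at 392.6, 226.2 and 180.4 FPKM at E11.5, at 55.9, 34.6 and 14.97 at E15.5, and at 100.5, 81.9 and 34.6 in PN. In the E11.5 and E15.5 stages library a had the most Fev, En1 and Hmx2, and at E15.5 and in PN library c had the least of all 3. After taking out the stage means of log2(FPKM + 1), Pearson's r with Fev over the 9 libraries was 0.922 for Hmx2 and 0.880 for En1, above 99.4% and 99.3% of genes. It was 0.543 for Hmx3 and 0.361 for En2, above 86.4% and 72.8%. Without the 2 libraries farthest from the median of the member, these became 0.937, 0.851, 0.366 and 0.334. Spearman's rho was 0.917, 0.867, 0.567 and 0.500. Between En1 and Hmx2 r was 0.900.

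These correlations describe points that share a library, and thus its depth and its mix of cells. The sum of FPKM was also lowest in library c at E15.5 and in PN. At E11.5 the sum was lowest in library b, as were En1 and Hmx2, while Fev was lowest in library c. In PN the sum and Hmx2 were highest in library b, but Fev and En1 in library a. After upper quartile scaling r with Fev was 0.923 for Hmx2 and 0.873 for En1. Across the 9 libraries with stages included, the genes most like Hmx2 included Rpl13a, Dlk1, Nkx2-2 and BC057022 (Pearson's r 0.983 to 0.978). Rpl13a encodes a ribosomal protein, and Nkx2-2 is a homeobox factor of serotonin progenitors. Those most like Hmx3 were Prtn3, Klhl36, Nme4, Rpl8 and Fbrsl1 (r 0.973 to 0.939). For En1 they were Gm16845, Ttbk1, Sipa1, Gchfr and Pvrl1 (r 0.953 to 0.919), of which Gchfr encodes the feedback regulator of GTP cyclohydrolase, a step in making the cofactor for serotonin synthesis. For En2 they were Thap1, Tnks, Mcts2, Pop1 and Gna13 (r 0.977 to 0.942).

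None of the members was the nearest to its paralog. Hmx2 stood at rank 82 among the genes most like Hmx3 (r = 0.870), and Hmx3 at rank 400 for Hmx2. En2 stood at rank 1028 for En1 (r = 0.613), and r was 0.282 without the 2 libraries farthest from the median. Fev stood at rank 97 for En1 (r = 0.833) and at rank 347 for Hmx2 (r = 0.881). By Spearman's rho only 1 of each member's 5 genes stayed among its top 5.

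The Pet-1 knockout asks which genes depend on Pet-1 at E15.5. In the authors' deposited tables Fev itself was at 31.1 FPKM in wild type and 0.422 in Pet-1-/- with the Clontech kit, and at 34.9 and 0.308 with the NuGEN kit (log2 fold change -6.20 and -6.82). Fev was thus nearly absent from the groups labelled as knockout. Each table gives 1 value per group, so no spread between libraries can be shown, and p and q are the authors'. The Clontech wild type is, by the protocol, the same group as the E15.5 stage.

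En1 was the member called in the knockout, and with 1 of the kits. In the authors' deposited Clontech table it was at 27.9 FPKM in wild type and 14.7 in Pet-1-/-, lower by 1.90-fold (log2 fold change -0.92, q = 0.00391). In the authors' deposited NuGEN table it was at 23.5 and 17.4 FPKM (log2 fold change -0.43, q = 0.251) and was not called. En1 was lower in both tables, and the difference between the kits was not tested. At q below 0.05, 1.5-fold and 1 FPKM in a group, 2.82% of genes were called in either direction in the Clontech table and 12.7% in the NuGEN table. With the NuGEN kit, 15.4% of genes had a fold change as low as that of En1, and 5.71% with the Clontech kit.

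The other members were not called with either kit. In the authors' deposited tables Hmx2 was at 8.69 and 6.65 FPKM in Clontech wild type and knockout (log2 fold change -0.39, q = 0.616), and at 12.49 and 10.4 in the NuGEN groups (-0.26, q = 0.567). En2 was at 1.403 and 1.38 FPKM with the Clontech kit (log2 fold change -0.02, q = 0.991) and at 0.623 and 1.01 with the NuGEN kit in the authors' deposited tables (0.69, q = 0.317). Hmx3 was at 0.870 and 0.681 FPKM with the Clontech kit (log2 fold change -0.36, q = 0.920) and at 0.823 and 1.18 with the NuGEN kit in the authors' deposited tables (0.52, q = 0.697). Hmx3 did not reach 1 FPKM in either Clontech group and could not be called there. En2 and Hmx3 lay near 1 FPKM in all groups.

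**Figure D4:**
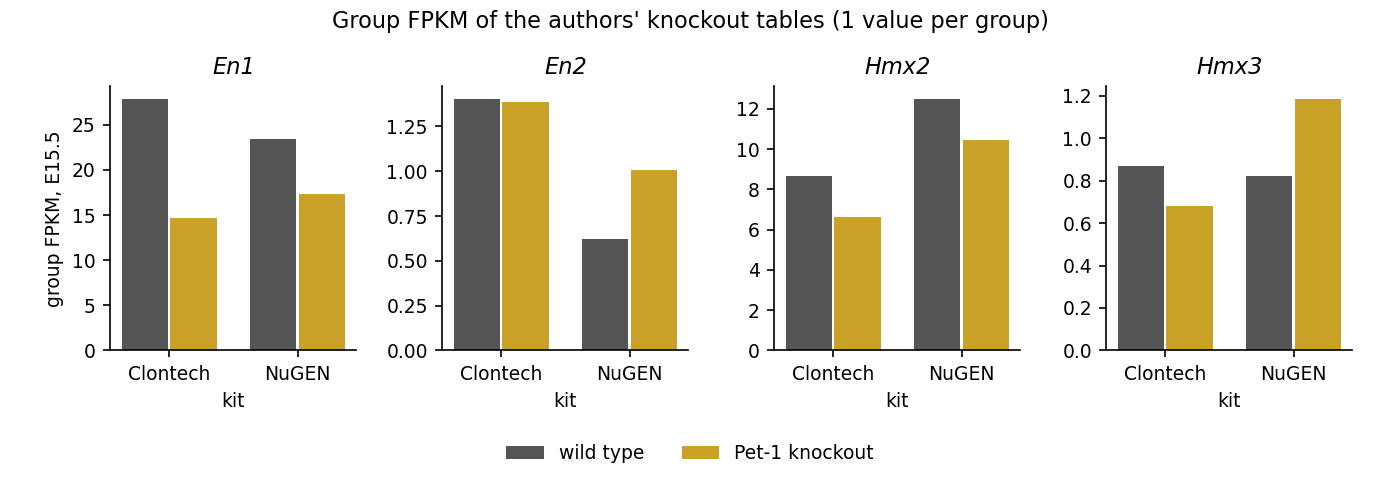
Group FPKM at E15.5 in wild type and Pet-1-/- for each kit, from the authors' deposited tables, with 1 value per group and no error. En1 is lower in the knockout with both kits (27.9 to 14.7 and 23.5 to 17.4 FPKM).

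Genes of other cells also differed in these tables. In the authors' deposited Clontech table the astrocyte genes Slc1a3 and Aldh1l1 went from 16.1 to 2.18 and from 9.13 to 1.35 FPKM, and Vim, an intermediate filament gene of progenitors and glia, from 64.2 to 18.9 (each q = 0.00391). These were 2 of 4 astrocyte markers listed. In the authors' deposited NuGEN table Vim went from 38.7 to 18.8 and Slc1a3 from 4.34 to 2.34 FPKM. In the same authors' deposited table the GABA neuron gene Gad2 and Nr4a2, a dopamine neuron factor, were called higher, from 0.951 to 1.86 and from 0.492 to 1.56 FPKM (q = 0.0269 and 0.01498). They were 1 of 3 GABA and 1 of 5 dopamine neuron markers listed, and neither list had a call with the Clontech kit. The part of these genes of other cells in the En1 result was not tested. Serotonin neuron markers were lower too, 5 of 6 with the Clontech kit and 6 of 6 with the NuGEN kit, Tph2 among them. Beside all these marker counts, 2.82% of all genes were called in either direction with the Clontech kit and 12.7% with the NuGEN kit.

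The mycPet-1 experiment asks where Pet-1 binds. All 4 genes had peaks within 10 kb, 13 different peaks at the 3 loci, where 43% of the genes tested, and 28.5% of all genes in the table, had a peak. At least 3 peaks stood within 10 kb of each member, against 1.4% of genes tested, and at least 2 overlapped each span, against 1.9%. At En1, 2 peaks overlapped the gene, and the stronger one, chr1:120603283-120606055, had a score of 620.95, rank 150 of 4934 peaks in the authors' list. The score is the authors' own per peak, and the list has a median of 88.3. At En2, 3 peaks overlapped the gene and 2 more stood below it, with 417.36 as the highest score, at chr5:28166051-28167381.

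At the Hmx pair 5 peaks stood within 10 kb of either gene, and 3 of them were within 10 kb of both, so that the genes share them. The strongest, chr7:131554311-131556578 with a score of 377.34, overlapped Hmx2. The next, chr7:131542886-131545042 with 312.24, overlapped Hmx3. Peaks covered 66.7% of the En1 span, 61.4% of En2, 75.6% of Hmx3 and 35% of Hmx2, while 0.816% of genes tested had 50% or more of their span covered. This share depends on span length, and the members span 4496 to 9258 bases. No comparison with genes of like length is given. Of the 13 peaks 9 had at least the median score. Exons and introns were not annotated for these peaks.

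**Figure D5:**
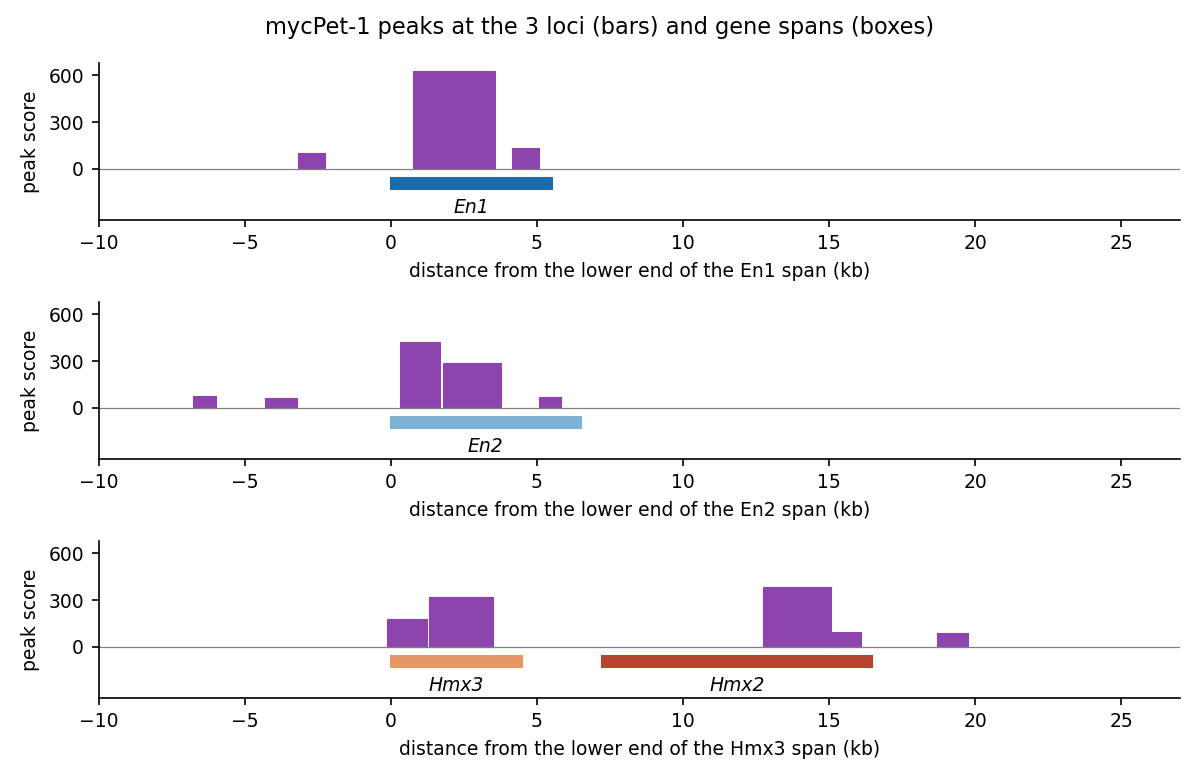
Peaks within 10 kb of each gene as bars, with their score as height, against distance in kb from the lower-coordinate end of the En1, En2 or Hmx3 span; boxes below are the gene spans. The tallest bar at each locus lies over a gene, with scores of 620.95, 417.36 and 377.34.

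Many homeobox genes outside this group had peaks too, expressed or not. Of 42 NK-like homeobox genes with a span 32 had a peak within 10 kb and 16 had at least 3. Of 39 Hox genes, which stand in clusters, 35 had one and 20 at least 3. Among the genes of these lists below the expression filter, 29 of 38 and 34 of 38 had a peak. Of the 4 members, all with peaks, 1 was called in a knockout table, En1 with the Clontech kit. Over all genes, 2.82% were called in either direction with that kit and 12.7% with the NuGEN kit.

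Genes around the 4 factors were read from chosen lists. The isthmic patterning list, genes that set up the midbrain-hindbrain border and its FGF signals, had 22 genes of which 11 passed the filter. From E11.5 to E15.5 0 of 11 were called by limma, with 3 at an unadjusted p under 0.05, against 28.9% of all genes called, and the list's median log2 change was -0.31. From E11.5 to PN 1 fell, Pax8, a paired-box factor, from 2.32 ± 0.466 to 0.634 ± 0.379 FPKM (n = 3, log2 change -1.04, limma, adjusted p = 0.0258), against 27.4% called among all genes. Fgf8, the isthmic signal known to maintain Engrailed expression, was named for that role after its values were seen. It was at 5.83 ± 8.47 FPKM at E11.5, 1.46 ± 1.39 at E15.5 and 1.29 ± 1.02 in PN (n = 3), with an SD above the mean at E11.5. In the knockout the only call of the list was Spry1, an FGF signalling inhibitor, at 1.33 and 3.83 FPKM in the authors' deposited NuGEN table (q = 0.00473). That is 1 of 7 list genes with 1 FPKM there, where 12.7% of all genes were called.

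Among 8 cofactors of Engrailed, Pbx homeodomain partners and Groucho corepressors, 1 rose and 1 fell in the first interval, a share near the 28.9% called among all genes. Pbx3 rose from 49.7 ± 27.02 to 141.7 ± 6.57 FPKM (n = 3, log2 change 1.62, limma, adjusted p = 0.00451). Tle4, a Groucho corepressor, fell from 13.6 ± 3.18 to 5.07 ± 1.21 FPKM (n = 3, log2 change -1.27, limma, adjusted p = 0.0140). By PN Tle4 and Pbx2, 2 of the 8, were called lower than at E11.5, a share near the 27.4% called among all genes. The list's median log2 change from E11.5 to PN was -0.06. In the knockout Tle2 was the only call, at 7.84 and 4.00 FPKM in the authors' deposited NuGEN table (q = 0.0105). That is 1 of 8 cofactors, a share near the 12.7% of all genes called with that kit.

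Of 6 genes linked to Engrailed in midbrain or tectal work, 5 were in the table. From E11.5 to E15.5, 2 of the 5 were called higher and 2 lower, where 28.9% of all genes were called in either direction. Among them the ephrin ligand gene Efna5 rose, and Efna2 and the neurotrophin receptor gene Ngfr fell. Their log2 changes were 2.32, -1.77 and -1.57 (limma, adjusted p = 4.79e-04, 0.00689 and 0.00271). Efna5 was also lower in the knockout with both kits, from 26.1 to 12.9 FPKM and from 34.2 to 19.1 in the authors' deposited tables (q = 0.00391 and 0.00837). Ngfr was called lower in the authors' deposited NuGEN table, at 1.49 and 0.416 FPKM (q = 0.0214). Of list genes with 1 FPKM, 1 of 4 was called with the Clontech kit and 2 of 5 with the NuGEN kit. Over all genes these shares were 2.82% and 12.7%.

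NK-like homeobox genes other than Hmx2 and Hmx3 were mostly silent, with 16 of 42 at 0 in all 9 libraries and 4 above the filter. Of these 3 fell from E11.5 to E15.5, where 28.9% of all genes tested were called in either direction. They were Nkx2-2, Nkx2-9 and Nkx6-2 (log2 changes -1.89, -3.29 and -1.95, limma, adjusted p = 0.00353, 6.58e-04 and 0.0120). All are ventral hindbrain progenitor factors. Nkx2-2 was at 28.2 ± 5.35 FPKM at E11.5, 7.10 ± 2.65 at E15.5 and 4.81 ± 1.90 in PN (n = 3). With 4 of 42 past the filter, the count describes those 4 genes. Nkx2-2 was higher in the knockout in the authors' deposited NuGEN table (8.35 and 18.0 FPKM, q = 0.00206) and not called with the Clontech kit. Over all genes 12.7% were called with the NuGEN kit and 2.82% with the Clontech kit. Of 39 Hox genes 1 passed the filter, Hoxa2, and 23 were at 0 in all libraries. Of 8 other serotonin neuron factors 5 fell from E11.5 to E15.5, Fev, Insm1, Pou3f2 and Lmx1b among them, against 28.9% of all genes called in either direction, and the list's median log2 change was -2.01.

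Markers were read in the same libraries. All 6 serotonin neuron markers were at 1 FPKM or more in every library. The noradrenaline neuron genes Dbh and Phox2a were at 0 in all 9. The dopamine neuron genes Slc6a3 and Pitx3 stayed below 1 FPKM in every library, and the 5 dopamine markers summed to 11.6 to 20.4 FPKM at E11.5, 13.9 to 21.5 at E15.5 and 7.42 to 61.7 in PN. The 5 cerebellar granule lineage markers summed to at most 3.09 FPKM. Summed astrocyte markers were at most 0.0479 FPKM at E11.5 and 12.4 to 34.6 later, and the 5 microglia markers summed to at most 17.7 FPKM before PN. The 5 progenitor markers summed to 182.9 to 325.0 FPKM at E11.5, 58.6 to 123.2 at E15.5 and 38.9 to 44.4 in PN. Most of each E11.5 sum was Vim, at 157.7 to 300.9 FPKM. Hes5 rose instead from E15.5 to PN (1.82 ± 0.770 to 11.47 ± 5.90 FPKM, n = 3, log2 change 2.08, limma, adjusted p = 0.0257), and the proliferation gene Mki67 was below 1 FPKM in every library. Their part in the fall of Hmx2 was not tested.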

How the data were processed

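The authors deposited stage FPKM for each library and knockout FPKM for each group. The deposited Cuffdiff comparisons hold a log2 fold change with its p-value and q-value, per the file headers. Per the submitters' processing notes TopHat2, Cufflinks, BWA and MACS 1.4.2 were used, with builds mm9 and mm10 and no role given. The authors deposited the peak list for mm10 with a score per peak. Of the stage table, 14 genes with a failed estimate were left out, and 3 columns with no matching sample stayed unused. Whether the libraries of a group came from separate animals is not stated, so p-values measure only the spread between these samples, which may be technical. FPKM steps gave no whole reads and depth is unknown. FPKM summed to between 619069 and 893306 per library.

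Stages were tested on log2(FPKM + 1) by limma 3.58.1 (R 4.3.3, trended variance, 6 residual degrees of freedom), a scale that understates the changes of weakly expressed genes. A gene entered the test if 3 or more libraries reached 1 FPKM. P-values were adjusted by Benjamini-Hochberg over 11741 genes, and called below 0.05 and at 1.5-fold or more. Mean FPKM of the E15.5 stage columns over the Clontech wild-type value had a median ratio of 1.01 (5th to 95th percentile of 6382 genes, 0.874 to 1.19), against 0.482 to 2.06 over NuGEN wild type. The kit of those columns was taken from the protocol, not from these ratios. RefSeq spans of GRCm38.p6 matched 22280 of 22542 genes, and promoters are RefSeq's of the same build. Named genes were the members, the 5 genes with the highest Pearson correlation to each, and up to 4 called genes per list and comparison, of which a few are not reported here. The members and lists were chosen with earlier results of these data known. Alternatives covered pseudocount, filters, scaling, trend, libraries left out and the authors' stage table.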

Additional observations from a re-analysis of the deposited data

How the results depend on the processing

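Hmx2 kept its direction and its call from E11.5 to E15.5 and to PN under every alternative run (log2 change -2.94 to -2.41 and -3.28 to -2.67 with 1 library left out). Hmx3 did not. At a pseudocount of 0.1 its log2 changes were -2.02 and -2.004 and neither was called, and with no filter on low values -1.45 and -1.35 were not called, in a larger set of genes. With only the 6 libraries compared, -1.35 to PN was not called, and the authors' stage table gave -2.05 to E15.5 (q = 0.0616). With 1 library left out its changes ran from -1.61 to -1.16, from -1.76 to -0.95 and, from E15.5 to PN, from -0.31 to 0.50. En1 was called from E11.5 to E15.5 with upper quartile scaling (-1.32) and in the authors' stage table (-1.18), which also called 0.91 from E15.5 to PN. With 1 library left out En1 ran from -1.42 to -0.72, 0.47 to 1.27 and, from E11.5 to PN, -0.66 to 0.14, and En2 from -1.35 to -0.38 over the last span and from -1.15 to -0.19 from E11.5 to E15.5. The difference between steps was not called for Hmx2 at a pseudocount of 0.1 (2.33) or with no filter (2.26), and ran from 1.79 to 2.85 with 1 library left out. It ran from 1.54 to 2.51 for En1 and from -0.0115 to 0.95 for En2. Where a cause is not named, the cause was not tested. Genes called from E15.5 to PN numbered 3918 in the authors' stage table and 1325 to 2960 with 1 library left out, against 2370, and for the difference between steps 1450 to 2824 against 2658. At q below 0.01 the knockout calls fell to 173 and 563, from 308 and 1404. En2 had 2 peaks at or above the median score rather than 5, and Hmx3 had 5 within 50 kb rather than 3. No paired analysis was possible because the columns of the stage table carry no replicate number of the labels and the knockout tables hold group values. Depth is unknown, so counting error could not be given for En2 and Hmx3, which lie near 1 FPKM.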
